A study of Mus musculus with 233 samples.

Results

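The part of the study described here was an interaction: the difference between a zinc finger repressor and its control virus in the striatum of zQ175 mice minus the same difference in wild-type (WT) mice, after injection at 2 months of age. It separates responses that differed between the genotypes from responses that both genotypes shared. It was computed for every gene from 61 of the 233 libraries of the series, 29 collected at 6 months of age (paradigm 2M_6M, 4 months of treatment) and 32 collected at 8 months (2M_8M, 6 months of treatment). Membership followed the labels: all striatal libraries of the nZFP and DBD viruses in these paradigms, without the library labelled zQ175 DBD 2M_6M replicate 3 and that labelled WT DBD 2M_6M replicate 6.

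All mice were littermates of the zQ175DN line, either heterozygous for a knock-in in which human HTT exon 1 with an expanded CAG tract replaces mouse Htt exon 1, or WT. Every hemisphere received an AAV2/2+1 virus. The virus nZFP expressed ZFP30645, an HA-tagged zinc finger repressor directed at expanded CAG repeats, from the human synapsin promoter, which is active in neurons. The control virus DBD expressed the same protein without its DNA binding domain from the same promoter. The 4 groups were WT DBD (15 libraries), WT nZFP (16), zQ175 DBD (14) and zQ175 nZFP (16), of both sexes. The 61 libraries came from 46 mice, of which 15 gave 1 library to each virus and 31 gave 1 library only. Because the repressor was driven in neurons and the RNA was taken from whole striatal tissue, a change in the number of cells of a type and a change in RNA per cell cannot be told apart.

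Huntington's disease is caused by expansion of a CAG tract in the huntingtin gene, and the medium spiny neurons of the striatum are its best known target. These neurons use dopamine, adenosine and muscarinic receptors that act through cyclic AMP, and carry DARPP-32 (Ppp1r1b), the phosphodiesterases Pde10a and Pde1b and the sodium channel subunit Scn4b as identity genes. Loss of such identity transcripts, together with release of developmental genes that are normally silenced by Polycomb complexes, is a recognised feature of the striatum in knock-in models. A zinc finger protein that recognises CAG repeats can in principle bind any locus with such a repeat, in either genotype.

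The libraries held 28590000 to 61300000 gene counts (to 4 digits). Expression is given as CPM, the counts of a gene relative to the library total, scaled by TMM normalisation factors. ZFP30645 transcripts were at a mean of 699.6 ± 199.1 CPM (SD, n = 8) in zQ175 nZFP and 741.4 ± 193.3 (n = 8) in WT nZFP libraries of 2M_6M, and at 379.7 ± 140.8 (n = 8) and 336.4 ± 168.6 (n = 8) in 2M_8M. Neither difference between genotypes exceeded the spread (exact permutation p = 0.675 and 0.579, two-sided). Reads assigned to the transgene entry were 4.58 to 17.7 CPM in the DBD libraries. The libraries also differed in the balance of long against short genes, summarised as a length index (the median centred log2 level of the longest 20% of genes minus that of the shortest 20%). In 2M_8M this index was below 0 in 8 of 8 WT nZFP, 6 of 8 zQ175 nZFP, 4 of 8 WT DBD and 3 of 8 zQ175 DBD libraries. In 2M_6M it was below 0 only in WT DBD replicate 7. The index therefore moved with the virus in 2M_8M. Htt and the counts of called genes for the interaction and for each genotype are given with and without it as a covariate. The values of other genes are given without it.

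The targeted gene was measured first. Endogenous Htt ranged from 59.2 to 106 CPM in zQ175 DBD (median 85.6) and from 41.3 to 98.9 in zQ175 nZFP (median 73.3). It ranged from 78.1 to 157 in WT DBD (median 117) and from 59.8 to 149 in WT nZFP (median 107). Over both paradigms all 4 ranges overlapped. Htt was lower in zQ175 than in WT under DBD (log2 -0.475, edgeR adjusted p = 0.000513). Under nZFP this difference was -0.564 (edgeR adjusted p = 0.000118). In WT the mean was 119.9 CPM under DBD and 133.9 under nZFP in 2M_6M, and 113.5 and 79.93 in 2M_8M. In zQ175 it was 89.95 and 78.65 in 2M_6M, and 78.99 and 63.1 in 2M_8M. With the paradigms combined, the log2 change with the repressor was -0.27 (SE 0.11, edgeR adjusted p = 0.0806) in zQ175 and -0.18 (SE 0.11, edgeR adjusted p = 0.329) in WT. The interaction was -0.09 (SE 0.15, edgeR adjusted p = 0.845). The Htt interaction was -0.34 in 2M_6M and 0.18 in 2M_8M, neither called, and their difference was 0.52 (SE 0.28, edgeR unadjusted p = 0.0712). With the length index as a covariate the Htt interaction was -0.17 and passed (edgeR adjusted p = 0.0409). This entry counts reads over the whole gene from both alleles in zQ175 mice. A separate entry for the human exon sequence held too few reads to resolve a change: its mean was 0.0599 CPM in zQ175 DBD and 0.0185 in zQ175 nZFP in 2M_6M (exact permutation p = 0.0666), and 0.0848 and 0.0372 in 2M_8M (p = 0.18, exact permutation), and neither passed after adjustment over the 4 vector tests (0.266 and 0.36).

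Of 15949 genes tested, 1029 (6.45%) differed between the genotypes in their response to the repressor (edgeR quasi-likelihood test, Benjamini-Hochberg adjusted p under 0.05). The response was more positive in zQ175 for 639 genes (4.01%) and more negative for 390 (2.45%). With each mouse as a block and the Estop libraries added to the fit, so that the hemispheres of 1 mouse were compared, 1598 genes passed, 907 of the 1029 among them. The repressor alone changed 2928 genes (18.4%) in zQ175, 1538 higher (9.64%) and 1390 lower (8.72%), and 285 (1.79%) in WT, 120 higher (0.752%) and 165 lower (1.03%). The count in WT was the less stable of the pair. It was 444 without WT DBD 2M_6M replicate 7 and 145 with the 2 left-out libraries put back. Against the Estop control virus it was 522, and 125 of the 285 were kept. The pooled counts also join unlike paradigms. In 2M_6M the repressor changed 1142 genes in zQ175 and 36 in WT. In 2M_8M it changed 1605 in zQ175 and 3008 in WT.

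For 88.9% of the interaction genes the larger change was in zQ175 mice. Among the 639 genes with a higher interaction, 532 passed in zQ175 only, 26 in WT only, 20 in both genotypes with opposite sign, 17 in both with the same sign and 44 in neither. Among the 390 with a lower interaction the corresponding counts were 328, 11, 2, 3 and 46. The median log2 change of the higher set was 0.34 in zQ175 and -0.06 in WT, and of the lower set -0.26 in zQ175 and 0.07 in WT. These medians describe genes chosen by the same contrast and carry no test. A call in zQ175 did not by itself mark a genotype difference: 902 of the 2928 genes called there (30.8%) passed in the interaction.

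**Figure D1:**
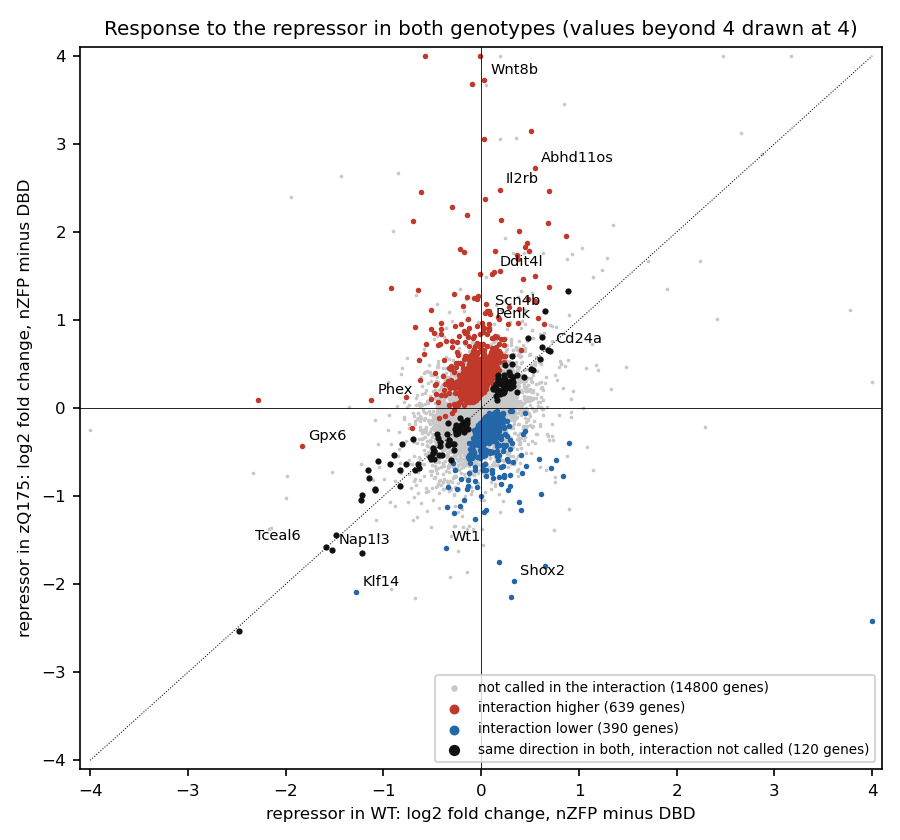
Log2 fold change with the repressor (nZFP minus DBD) in WT on the horizontal axis and in zQ175 on the vertical axis, 1 point per gene, with values beyond 4 drawn at 4; the dotted line marks equal change. The 639 genes with a higher and the 390 with a lower interaction lie mostly along the vertical axis, and the 120 genes called in the same direction in both genotypes, without a called interaction, lie nearer the dotted line.

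The genotype difference of these genes was also measured in libraries that the interaction did not use, the 30 of the third virus, Estop, which carries a stuffer sequence and encodes no protein. The Estop libraries came from 30 mice, 29 of which also gave a DBD or nZFP library used here. Of the interaction-higher genes, 624 were tested there, and 584 (93.6%) were lower in zQ175 than in WT and 0 higher, with a median log2 difference of -0.48. Of the interaction-lower genes, 388 were tested there, and 346 (89.2%) were higher in zQ175 and 0 lower, with a median of 0.39. Over all genes tested in both, 17.1% were lower and 16.9% higher in zQ175 under Estop (34.1% of the genes tested there were called). Read the other way, 22.0% of the 2658 genes lower in zQ175 under Estop had a higher interaction, and 13.2% of the 2626 higher genes had a lower interaction. Under nZFP, 220 of the 639 higher genes were still lower in zQ175 than in WT and 9 were higher, against 5.15% and 6.09% of all genes, and the median difference was -0.12; 11.2% of all genes were called there. Of the 390 lower genes, 127 were still higher in zQ175 under nZFP and 5 were lower, with a median of 0.10. The nZFP values share their libraries with the interaction and are a description.

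Wnt8b, a secreted Wnt ligand (chr19:44493472-44514273, GRCm38), had the highest interaction among the genes named by rule. In zQ175 DBD it ranged from 0.0207 to 0.264 CPM (median 0.0802) and in zQ175 nZFP from 0.541 to 3.23 (median 1.13). In WT DBD it ranged from 1.09 to 4.14 (median 2.10) and in WT nZFP from 0.972 to 4.86 (median 1.92). Every zQ175 nZFP library was above every zQ175 DBD library, while the WT ranges overlapped almost fully. The log2 interaction was 3.70 (SE 0.37, edgeR adjusted p = 4.91e-11), with 3.73 in zQ175 and 0.03 in WT. The zQ175 DBD level was near the floor, so that the size of these fitted changes depends on the prior count.

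Il2rb, the beta chain of the interleukin 2 receptor, and Abhd11os, a non-coding transcript opposite Abhd11, followed. Il2rb ranged from 0.117 to 0.422 CPM in zQ175 DBD and from 0.826 to 2.48 in zQ175 nZFP, against 1.11 to 2.78 in WT DBD and 1.36 to 2.84 in WT nZFP. Its interaction was 2.29 (SE 0.21, edgeR adjusted p = 1.15e-12). Abhd11os ranged from 1.75 to 5.35 CPM in zQ175 DBD and from 10.2 to 36.1 in zQ175 nZFP, against 12.4 to 25.1 in WT DBD and 13.8 to 44.0 in WT nZFP. It rose in both genotypes, by 2.73 on the log2 scale in zQ175 and 0.55 in WT (edgeR adjusted p = 0.0225), and the interaction was 2.18. Neither gene overlapped between the viruses in zQ175.

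Ddit4l, an inhibitor of mTOR signalling, was measured most precisely of the 12 highest genes. It ranged from 5.65 to 9.56 CPM in zQ175 DBD (median 7.52), from 17.4 to 29.2 in zQ175 nZFP (median 22.2), from 25.5 to 42.5 in WT DBD (median 34.2) and from 31.4 to 48.6 in WT nZFP (median 36.0). The zQ175 groups did not overlap each other. Its interaction was 1.41 (SE 0.11, edgeR adjusted p = 1.44e-15), and under nZFP it was still lower in zQ175 than in WT by -0.78 (edgeR adjusted p = 2.03e-12).

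Ffar3, a receptor for short-chain fatty acids, had an interaction of 1.64, Mafa, a basic leucine zipper transcription factor, 1.64, Vwa7 1.94 and Tmem114 1.41. Sec14l3, a member of the SEC14 family of lipid-binding proteins, rose in both genotypes (1.83 in zQ175, 0.45 in WT) with an interaction of 1.38. Myo3b, a class III myosin, rose by 0.85 in zQ175 and fell by 0.48 in WT (edgeR adjusted p = 0.00387), so that both genotypes contributed to its interaction of 1.34. Egr2, an immediate early transcription factor, had an interaction of 1.53 with a wide error (SE 0.48, edgeR adjusted p = 0.0374), and did not pass against Estop, without a filter on low counts or with replicate number as a block.

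**Figure D2:**
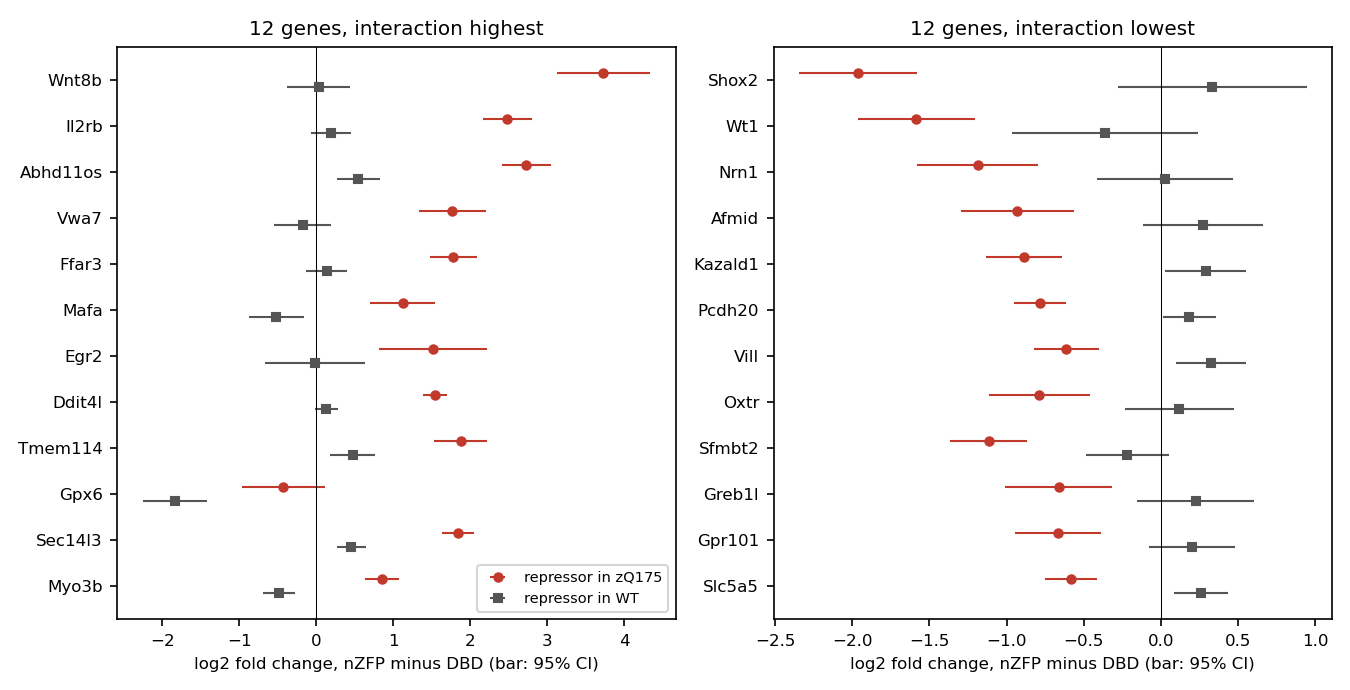
Log2 fold change with the repressor in zQ175 (circles) and in WT (squares), with 95% confidence intervals, for the 12 genes with the highest and the 12 with the lowest interaction named by rule. The zQ175 value lies away from 0 and the WT value near it for most genes. In WT, Gpx6 (-1.84), Myo3b (-0.48), Abhd11os (0.55) and Sec14l3 (0.45) passed, and Gpx6 did not pass in zQ175 (-0.43).

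Shox2, a homeobox transcription factor of development (chr3:66971727-66981771, GRCm38), had the lowest interaction of the named genes with a mean above 1 CPM. It ranged from 1.66 to 9.75 CPM in zQ175 DBD (median 5.24) and from 0.169 to 3.60 in zQ175 nZFP (median 0.696). In WT it was at most 0.387 CPM under DBD and 0.572 under nZFP. Fitted fold changes in WT at such levels depend on the prior count. The zQ175 ranges overlapped over both paradigms but not within 2M_6M (at least 1.66 under DBD, at most 0.753 under nZFP) or 2M_8M (at least 5.22 and at most 3.60). All zQ175 DBD libraries stood above all WT libraries. The interaction was -2.30 (SE 0.36, edgeR adjusted p = 7.56e-06), and Shox2 remained higher in zQ175 than in WT under nZFP, by 2.59 (edgeR adjusted p = 2.03e-12).

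Wt1, a zinc finger transcription factor of development, ranged from 1.51 to 6.00 CPM in zQ175 DBD and from 0.278 to 2.24 in zQ175 nZFP, and was at most 0.387 in WT. Its interaction was -1.22 (SE 0.36, edgeR adjusted p = 0.0276) and did not pass against Estop. The fitted change of Wt1 in WT has the same limit as that of Shox2. Neuritin (Nrn1), a neuronal surface protein, ranged from 1.26 to 15.5 CPM in zQ175 DBD and from 0.536 to 5.07 in zQ175 nZFP, with an interaction of -1.21. Pcdh20, a non-clustered protocadherin, ranged from 19.5 to 36.5 CPM in zQ175 DBD and from 12.1 to 23.7 in zQ175 nZFP, which overlapped, and from 7.60 to 14.9 over both WT groups. Its interaction was -0.97 (SE 0.12, edgeR adjusted p = 2.66e-08).

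Other genes in this direction were Afmid, an arylformamidase of tryptophan breakdown (-1.20), Kazald1, a secreted protein with a Kazal domain (-1.18), Vill, a villin-like actin-binding protein (-0.94), and Oxtr, the oxytocin receptor (-0.91). Sfmbt2, a Polycomb group protein, had an interaction of -0.90, Greb1l -0.89, the orphan receptor Gpr101 -0.87 and Slc5a5, the sodium iodide symporter, -0.84. In zQ175 each of these 8 genes fell (log2 -0.58 to -1.12), and in WT none passed. All 8 were higher in zQ175 than in WT under DBD, by 1.25 to 2.00, where 32.3% of all genes were called.

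Of 30 medium spiny neuron identity genes tested, 23 had a higher and 0 a lower interaction, against 4.01% and 2.45% of all genes. In zQ175 24 of them rose and 2 fell, and in WT 0 rose and 1 fell. Their median interaction was 0.43 against 0.00 for all genes tested, and the median change was 0.41 in zQ175 and -0.02 in WT. Their summed level ranged from 16510 to 20920 CPM in zQ175 DBD, 20430 to 27900 in zQ175 nZFP, 27800 to 33050 in WT DBD and 24910 to 33960 in WT nZFP. The zQ175 nZFP sums thus lay between the zQ175 DBD and the WT sums, overlapping both. The list holds genes that earlier results of these data had shown, so that its direction is not independent evidence.

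Scn4b, the beta 4 subunit of voltage-gated sodium channels, had an interaction of 1.02 (SE 0.125, edgeR adjusted p = 1.43e-08). It ranged from 381 to 760 CPM in zQ175 DBD (median 530), 791 to 1655 in zQ175 nZFP (median 1167), 926 to 1826 in WT DBD (median 1519) and 963 to 2496 in WT nZFP (median 1580). The zQ175 groups did not overlap. Pde1b, a calmodulin-dependent phosphodiesterase, rose in zQ175 from a median of 952.7 to 1263 CPM without overlap and was at 1551 under both viruses in WT. Its interaction was 0.41 (SE 0.05, edgeR adjusted p = 1.22e-08). Rasgrp2, a Rap exchange factor, had an interaction of 0.475. DARPP-32 (Ppp1r1b) ranged from 1637 to 2409 CPM in zQ175 DBD and 2526 to 3189 in zQ175 nZFP, with an interaction of 0.57 (SE 0.07), and Pde10a had 0.75 (SE 0.12).

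Among the 30 identity genes 2 were called lower in zQ175. Arpp21, a cyclic AMP regulated phosphoprotein named here after its values were seen, fell in both genotypes, by 0.70 in zQ175 and 1.16 in WT (edgeR adjusted p = 2.26e-06 and 1.93e-11), and its interaction of 0.46 did not pass (edgeR adjusted p = 0.0668). Strip2, also named after its values were seen, fell by 0.20 in zQ175 (edgeR adjusted p = 0.0427), with -0.115 in WT and an interaction of -0.09, neither of which passed.

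Both output pathways contained genes with a higher interaction. Over all genes 4.01% had a higher and 2.45% a lower interaction. Of 8 indirect pathway genes tested, 6 had a higher interaction and 0 a lower one (median 0.55). Penk, the enkephalin precursor, ranged from 516 to 817 CPM in zQ175 DBD, 974.5 to 1713 in zQ175 nZFP, 1386 to 1998 in WT DBD and 1366 to 2352 in WT nZFP. The zQ175 groups did not overlap, and the interaction was 0.87 (SE 0.08, edgeR adjusted p = 1.31e-11). The adenosine receptor gene Adora2a had 0.65 (SE 0.07) and Upb1, beta-ureidopropionase, 1.28 (SE 0.13). Of 10 direct pathway genes, 3 had a higher interaction and 0 a lower one, and the list's median was 0.02. They were the dopamine receptor Drd1 (0.51, SE 0.05), the muscarinic receptor Chrm4 (0.67, SE 0.12) and the signalling regulator Rgs14 (0.78, SE 0.09). Drd1 ranged from 149.9 to 186 CPM in zQ175 DBD and from 190.5 to 246 in zQ175 nZFP, again without overlap. Both lists were chosen with earlier results of these data known, and whether the pathways differed from each other was not tested.

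**Figure D3:**
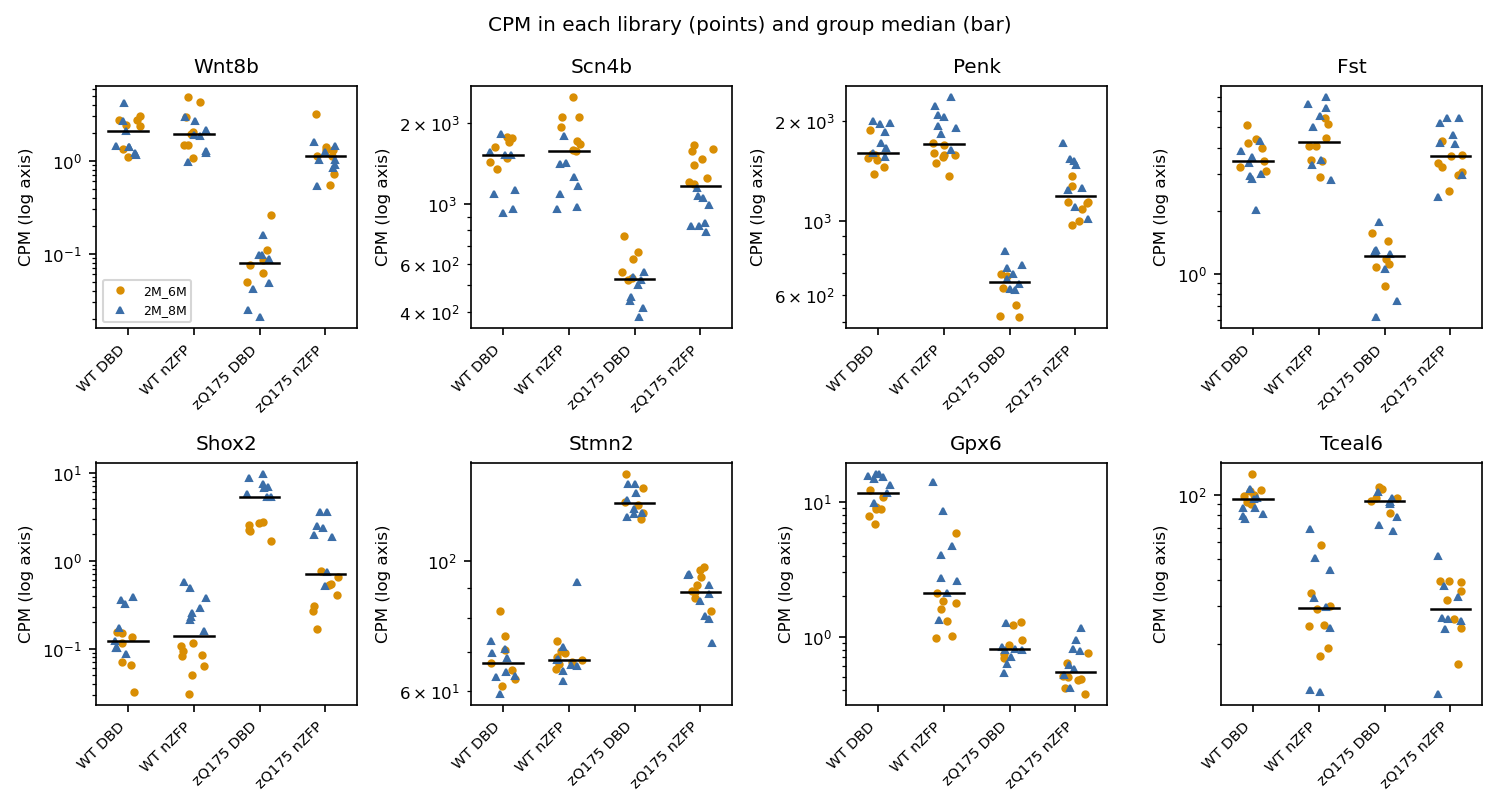
CPM (log axis) of 8 genes in each of the 61 libraries, by group, with circles for 2M_6M, triangles for 2M_8M and a bar at the group median. Wnt8b, Scn4b, Penk and Fst are lowest in zQ175 DBD, Shox2 and Stmn2 are highest there, Gpx6 is high in WT DBD, and Tceal6 is lower under nZFP in both genotypes.

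Genes that act on excitability and synaptic signalling had called interactions in 1 direction only. Over all genes, 4.01% were higher and 2.45% lower. Of 16 potassium channel genes 6 were higher and 0 lower (median 0.31), among them Kcnip2 (0.41), Kcnj4 (0.40) and Kcnab1 (0.35). Of 26 sodium and calcium channel genes 5 were higher and 0 lower (median 0.18), with Cacnb2 at 0.33 (not passed in either genotype by itself) and Cacna2d3 at 0.27 beside Scn4b. Of 32 genes of cyclic AMP and DARPP-32 signalling 10 were higher and 0 lower (median 0.15). Of 22 glutamate receptor and scaffold genes 7 were higher and 0 lower (median 0.25), including the scaffolds Homer1 (0.47) and Dlgap3 (0.40). Of 18 immediate early genes 3 were higher and 0 lower (median 0.45): Egr2, Egr3 (0.43) and Homer1, which also stands in the glutamate list. Not every list median came from a rise in zQ175. The median change in zQ175 and WT was 0.18 and -0.12 for potassium channels, and -0.03 and -0.17 for sodium and calcium channels. It was 0.06 and -0.04 for cyclic AMP signalling, where 10 members rose and 3 fell in zQ175. It was 0.17 and -0.07 for the glutamate list, and 0.22 and -0.14 for the immediate early genes. These lists overlap with each other and with the identity list.

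Fst, which encodes the activin antagonist follistatin, and Inhba, which encodes an activin subunit, both had a higher interaction. Fst ranged from 0.620 to 1.76 CPM in zQ175 DBD, 2.32 to 5.56 in zQ175 nZFP, 2.02 to 5.12 in WT DBD and 2.81 to 6.98 in WT nZFP. The zQ175 groups did not overlap, and the interaction was 1.32 (SE 0.19, edgeR adjusted p = 7.16e-07). Inhba had an interaction of 0.88 (SE 0.13). Of the 19 genes on this list 3 were higher and 2 lower, against 4.01% and 2.45% of all genes. Among 22 p53 and stress response genes 5 were higher and 0 lower, against the same shares, with a list median of -0.04. Ddit4l, the cell cycle inhibitor Cdkn1a (0.72) and Gadd45a (0.44) were among the 5. In zQ175 5 of the 22 rose and 2 fell, against 9.64% and 8.72% of all genes. In WT 0 rose and 2 fell, against 0.752% and 1.03%.

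Of 40 developmental transcription factors listed, 18 passed the filter on low counts. Some passed it only through zQ175 DBD, where they were high, so that the list's count and median are not read as a result. Besides Shox2 and Wt1, Hoxc4 and Hoxc5, homeobox genes, had interactions of -2.45 each. Hoxc4 ranged from 0.247 to 2.65 CPM in zQ175 DBD, up to 0.701 in zQ175 nZFP and up to 0.143 in WT nZFP, with libraries at 0 in all groups except zQ175 DBD. Hoxc5 ranged from 0.114 to 2.21 CPM in zQ175 DBD and reached 0.551 in zQ175 nZFP. Fitted fold changes at such levels depend on the prior count, and neither gene passed when the contrasts of the paradigms were averaged.

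Clustered protocadherins, cell surface adhesion proteins expressed in combinations by neurons, had a lower interaction for 5 of 15 tested and a higher one for 0 (median -0.30), where 2.45% of all genes were lower. In zQ175 14 of the 15 fell (8.72% of all genes) and in WT 4 (1.03%); 15 of the 24 listed were tested. Pcdhb20 ranged from 24.1 to 31.8 CPM in zQ175 DBD and 13.7 to 18.9 in zQ175 nZFP, against 15.0 to 20.4 in WT DBD and 11.7 to 18.1 in WT nZFP. It fell in both genotypes, by 0.70 in zQ175 and 0.27 in WT, and its interaction was -0.43 (SE 0.07, edgeR adjusted p = 2.56e-06). Pcdhb9 had -0.34 and Pcdhb17 -0.30. The family members are similar in sequence, so that reads could be divided among them. Of 20 Polycomb genes 3 had a lower interaction, among them Cbx8 (-0.52) and Rnf2 (-0.28), which encode subunits of Polycomb repressive complex 1. Rnf2 did not pass against Estop.

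Pan-neuronal genes had few called interactions, with 0 of 15 higher, 1 lower and a median of -0.04. In zQ175 1 of the 15 rose and 4 fell, against 9.64% and 8.72% of all genes, and in WT 0 passed. The gene with a called interaction was Stmn2, a regulator of microtubules in axons. It was at 117.9 to 141 CPM in zQ175 DBD, 72.3 to 97.7 in zQ175 nZFP, 59.3 to 82.3 in WT DBD and 62.4 to 91.9 in WT nZFP. The zQ175 groups did not overlap, and its interaction was -0.57 (SE 0.06, edgeR adjusted p = 1.96e-10).

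**Figure D4:**
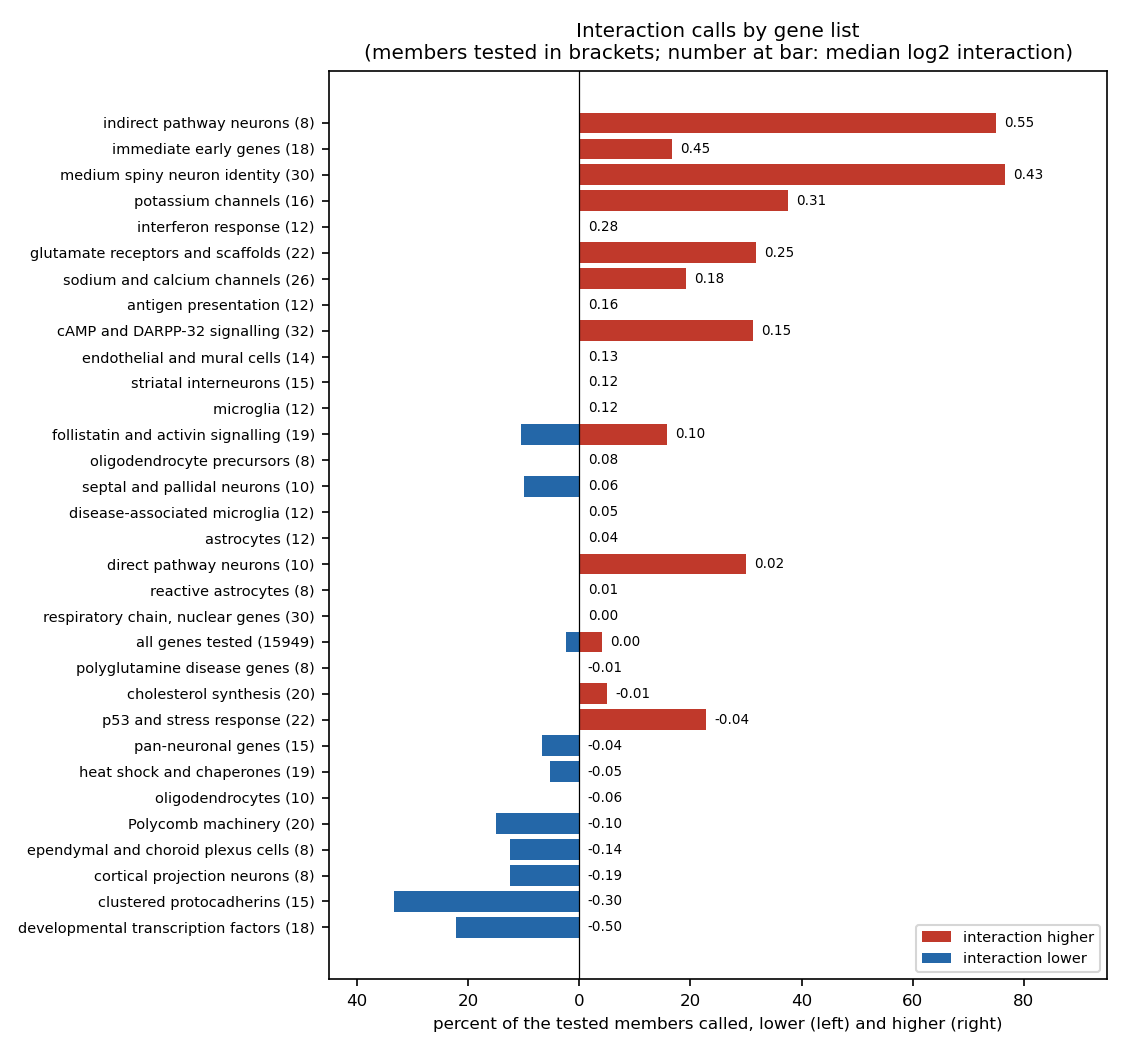
Percent of the tested members of each gene list with a higher (right) or lower (left) interaction, with the number tested in brackets and the list's median log2 interaction beside each bar. Medium spiny neuron identity (23 of 30) and indirect pathway genes (6 of 8) have the longest bars, against 4.01% higher and 2.45% lower over all genes tested. The bar of the developmental transcription factors holds the 18 of 40 that passed the filter on low counts.

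Markers of other cell types showed few interactions. Astrocyte, reactive astrocyte, oligodendrocyte, precursor, endothelial, interneuron and both microglial lists had 0 members called in either direction, with medians between -0.06 and 0.13. Their summed levels overlapped between all groups: microglial genes were at 514.7 to 827 CPM in zQ175 DBD, 674.9 to 985 in zQ175 nZFP, 615 to 957 in WT DBD and 607.5 to 1081 in WT nZFP. Of 12 microglial genes 10 rose in zQ175 (median 0.25) and 0 passed in WT (median 0.13). Over all genes 9.64% rose in zQ175 and 0.752% in WT, so that 0 of 12 in WT is little information. None of the 12 passed in the interaction, so that a genotype difference was not shown. Rises in zQ175 were also called for 6 of 12 antigen presentation and 6 of 15 interneuron genes, and in WT for 1 and 0. Singly called markers included Cd4 on the lymphocyte list (0.53), where 4 of 16 genes could be tested, Kl on the ependymal and choroid plexus list (-0.71) and Nrn1 on the cortical list. The septal and pallidal list had 1 of 10 members lower. The summed septal and pallidal level was 273 to 334 CPM in zQ175 DBD, 239 to 300.0 in zQ175 nZFP, 219 to 282 in WT DBD and 224 to 274 in WT nZFP; its part in the results was not tested. Of 30 nuclear respiratory chain genes 0 had an interaction (median 0.00), of 20 cholesterol genes 1 was higher (Srebf2, 0.27) and of 19 chaperone genes 1 was lower (Hsp90aa1, -0.30, not called against Estop). No interaction was called among 8 polyglutamine disease genes, 12 interferon response genes or 12 antigen presentation genes; with 6.45% of all genes called, lists of this size would hold few calls.

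Some interactions came from WT mice. Gpx6, a glutathione peroxidase, ranged from 6.81 to 16.3 CPM in WT DBD (median 11.8) and from 0.985 to 14.2 in WT nZFP (median 2.12). In zQ175 it was at 0.537 to 1.28 under DBD (median 0.805) and 0.376 to 1.16 under nZFP (median 0.548). It fell by 1.84 in WT (SE 0.21, edgeR adjusted p = 3.08e-09) and changed by -0.43 in zQ175 (SE 0.27, edgeR adjusted p = 0.28), an interaction of 1.405 (SE 0.34, edgeR adjusted p = 0.0047). The gene was thus already low in zQ175 under the control virus.

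Phex, a membrane endopeptidase, and Mas1, a receptor for angiotensin peptides, had the same form. Phex fell by 1.125 in WT (edgeR adjusted p = 1.18e-07) and was at a median of 1.13 CPM in zQ175 DBD and 1.15 in zQ175 nZFP, against 5.59 in WT DBD and 2.88 in WT nZFP. Mas1 fell by 0.77 in WT, with an interaction of 0.89. In the other direction Plk4, a centriole kinase, rose by 0.45 in WT and Fstl5 by 0.29, with interactions of -0.51 and -0.33. Against Estop neither the WT change (0.14) nor the interaction (-0.22) of Fstl5 passed. In 2M_8M, where all 8 WT nZFP libraries had a length index below 0, 3008 genes (18.9%) were called in WT, against 36 (0.226%) in 2M_6M. Within the 2M_8M libraries with an index below 0 the count in WT was 11. That subset holds 4 WT DBD and 8 WT nZFP libraries, and its count in zQ175 was 211, against 1605 in all of 2M_8M. The index and the smaller number of libraries cannot be told apart there. With the index as a covariate over both paradigms, 310 genes were called in WT, 203 of the 285 among them. The part of the index in the WT calls was not tested.

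Responses shared by the genotypes formed a smaller set. The same direction was called in both for 140 genes, which were 49.1% of the genes called in WT and 4.78% of those called in zQ175. Of these, 120 did not pass in the interaction, 66 lower and 54 higher. The other 20 changed in the same direction in both but more in zQ175. The set rests on the WT calls, of which 125 of 285 were kept against Estop. Failing to pass does not show equal change. Intervals of the interaction are given for the genes whose changes are described below.

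Tceal6, of the transcription elongation factor A like family on the X chromosome, ranged from 77.0 to 126 CPM in WT DBD (median 95.8) and from 11.8 to 69.2 in WT nZFP (median 29.3). In zQ175 it ranged from 67.8 to 109 under DBD (median 93.4) and from 11.6 to 51.5 under nZFP (median 29.2). The viruses did not overlap within either genotype, while the genotypes overlapped under each virus. It fell by 1.575 in zQ175 and 1.59 in WT, and the interaction was 0.02 (95% confidence interval -0.46 to 0.50).

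Nap1l3, a nucleosome assembly protein family member, fell by 1.61 in zQ175 and 1.53 in WT (interaction -0.09, 95% confidence interval -0.56 to 0.39). It was at 42.9 to 63.6 CPM in zQ175 DBD and 5.68 to 26.3 in zQ175 nZFP, and at 37.6 to 48.3 in WT DBD and 5.73 to 35.7 in WT nZFP, with no overlap between viruses. The calcium pump Atp2b3 fell by 1.05 and 1.23 (zQ175 and WT), Impdh1 of guanine nucleotide synthesis by 0.99 and 1.22, the kinase Stk32c by 0.92 and 1.09, and Mzt2, a partner of the gamma-tubulin complex, by 0.88 and 0.83. Within each genotype Impdh1 and Stk32c had no overlap between viruses. The 95% confidence interval of the interaction was -0.18 to 0.54 for Atp2b3 and -0.03 to 0.50 for Impdh1. It was -0.10 to 0.43 for Stk32c and -0.29 to 0.20 for Mzt2.

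The repressor is directed at CAG repeats, so the reference sequence of these genes was searched for runs of CAG and CTG, the same repeat read from the other strand. The sequences below show the longest run of 6 genes lower in both genotypes and of mouse Htt, with the run in capitals and 3 flanking bases on each side, in the direction of the transcript (GENCODE M21 transcripts, GRCm38). The genes other than Tceal6, Nap1l3 and Htt were picked for their runs after their values were seen.
Tceal6 (5 prime UTR, chrX:135210632-135210649, minus strand): gtcCTGCTGCTGCTGCTGCTGcgg
Nap1l3 (coding sequence, chrX:122396811-122396834, minus strand): tagCAGCAGCAGCAGCAGCAGCAGCAGtag
Kcnn3 (coding sequence, chr3:89520667-89520687, plus strand): tcgCAGCAGCAGCAGCAGCAGCAGtcg
Dach1 (coding sequence, chr14:98168891-98168908, minus strand): tagCAGCAGCAGCAGCAGCAGtag
Brdt (coding sequence, chr5:107359884-107359901, plus strand): cggCAGCAGCAGCAGCAGCAGcgg
Skida1 (coding sequence, chr2:18046347-18046370, minus strand): caaCAGCAGCAGCAGCAGCAGCAGCAGcaa
Htt (coding sequence, chr5:34761967-34761978, plus strand): caaCAGCAGCAGCAGcca

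A run of at least 6 units of CAG or CTG was found in the transcripts of 11 of the 66 genes lower in both genotypes without an interaction (16.7%). Of these 11, Gm5124 and Gm26593 hold the same genomic run on opposite strands, so that 1 run was counted for both. The longest runs, of 26 units in Sptbn5 and 19 in Gab3, are not shown above, nor is that of Nrg2 (7 units). The share was 0% of the 54 genes higher in both, 1.04% of 386 genes with a lower interaction, 2.35% of 638 with a higher interaction and 1.79% of the 15839 tested genes with a transcript sequence. The length of 6 units was chosen after the runs had been seen, transcripts of a gene vary in number and length, and introns were not searched. In RefSeq promoter windows (GRCm38.p6), a run of at least 4 units was found for 2 of 45 genes lower in both, Tceal6 and BB031773, 1 of 41 higher in both, 0.342% of 292 and 0.423% of 473 genes with a lower and a higher interaction, and 0.418% of 11959 tested genes with a window. A run is a description of the reference letters and not a binding site.

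Kcnn3, a calcium-activated potassium channel, carries 7 units and fell by 0.79 in zQ175 and 1.15 in WT (edgeR adjusted p = 1.21e-07 and 1.93e-11), with an interaction interval of 0.04 to 0.67. Dach1, a transcriptional cofactor, carries 6 and fell by 0.64 and 0.77 (interaction interval -0.04 to 0.30). Brdt, a bromodomain protein best known from testis, carries 6 and fell by 0.49 and 0.48 (interaction interval -0.23 to 0.21). The reference mouse Htt gene carries a longest uninterrupted run of 4 units. This run does not describe the knock-in allele of zQ175 mice, which carries the expanded tract. The change of Htt did not pass in either genotype, and its interaction passed only where the length index was a covariate. Among the genes without such a run were Impdh1, Arpp21, Stk32c, Atp2b3 and Mzt2.

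Of the genes that rose in both genotypes, P2ry1, a purinergic receptor, rose by 0.65 in zQ175 and 0.71 in WT. It ranged from 9.49 to 16.4 CPM in zQ175 DBD, 14.1 to 29.7 in zQ175 nZFP, 6.04 to 15.5 in WT DBD and 7.53 to 26.3 in WT nZFP, so that the viruses overlapped in both genotypes. S100a10, the annexin A2 partner also called p11, rose by 0.69 and 0.62 (zQ175 and WT), Ramp3, a receptor activity modifying protein, by 0.79 and 0.48, and Crhbp, the corticotropin-releasing hormone binding protein, by 0.56 and 0.61. Tnnt1, a troponin subunit, rose by 1.10 and 0.65, and Cd24a, a surface glycoprotein, by 0.66 and 0.69. The changes of Cd24a and Tnnt1 in WT did not pass against Estop, at 0.35 and 0.33. Cd24a did not pass in zQ175 with the 2 left-out libraries put back (0.39), nor Tnnt1 in WT with each mouse as a block (0.45).

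Fitted in each early paradigm by itself, the interaction was called for 218 genes (1.37%) in 2M_6M, 179 higher (1.12%) and 39 lower (0.245%). In 2M_8M it was called for 453 (2.84%), 329 higher (2.06%) and 124 lower (0.777%). No gene passed in the difference between the paradigms (edgeR, 0%), where 378 genes had an unadjusted p under 0.05, and DESeq2 also called 0, with 409. Wnt8b had an interaction of 3.52 in 2M_6M and 3.85 in 2M_8M, Scn4b 0.98 and 1.06, Penk 0.94 and 0.81, and Shox2 -1.99, which did not pass in 2M_6M (edgeR adjusted p = 0.157), and -2.32. The level of Shox2 in zQ175 DBD was 1.66 to 2.77 CPM at 6 months and 5.22 to 9.75 at 8 months, without overlap. With the length index as a covariate all 1029 genes of the combined interaction passed among 2024. Within the 2M_8M libraries with an index below 0, which leaves 4 WT DBD and 3 zQ175 DBD libraries and was chosen after the data had been seen, 14 genes passed, all 14 among the 1029.

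The interaction was also computed after injection at 6 months, in the mean of 6M_8M, 6M_10M and 6M_12M (90 libraries). Libraries of WT DBD and zQ175 nZFP in 6M_8M whose vector transcripts went against their labels were left out. Each paradigm label gives the age in months at injection and then at collection. Early and late injection thus differed in age at collection and in treatment times too, and these cannot be told apart from age at injection. There 25 of 16525 genes (0.151%) passed, 19 higher (0.115%) and 6 lower (0.0363%). The difference early minus late passed for 81 genes (0.49%), 67 higher (0.405%) and 14 lower (0.0847%). Wnt8b had a late interaction of 1.33 (SE 0.33) and a difference of 2.34 (SE 0.50, edgeR adjusted p = 0.00587). Il2rb had 0.74 late and a difference of 1.57 (edgeR adjusted p = 0.00258), and Wnt4, another Wnt ligand, -0.29 and 1.53 (edgeR adjusted p = 0.0227).

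Klf14, a Krüppel-like transcription factor, differed by -1.37 (edgeR adjusted p = 0.0444), Afmid by -1.27 and Kazald1 by -1.14. Klf14 fell in both genotypes after early injection, by 2.09 in zQ175 and 1.28 in WT. The differences of Klf14 and Afmid did not pass against Estop. Scn4b (0.67, edgeR adjusted p = 0.0136) and Penk (0.57, edgeR adjusted p = 0.0151) also differed between early and late injection. Of the 30 identity genes 3 passed in this difference, with a median of 0.30, and their median late interaction was 0.16. For most identity genes a difference between early and late injection was therefore not shown.

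**Figure D5:**
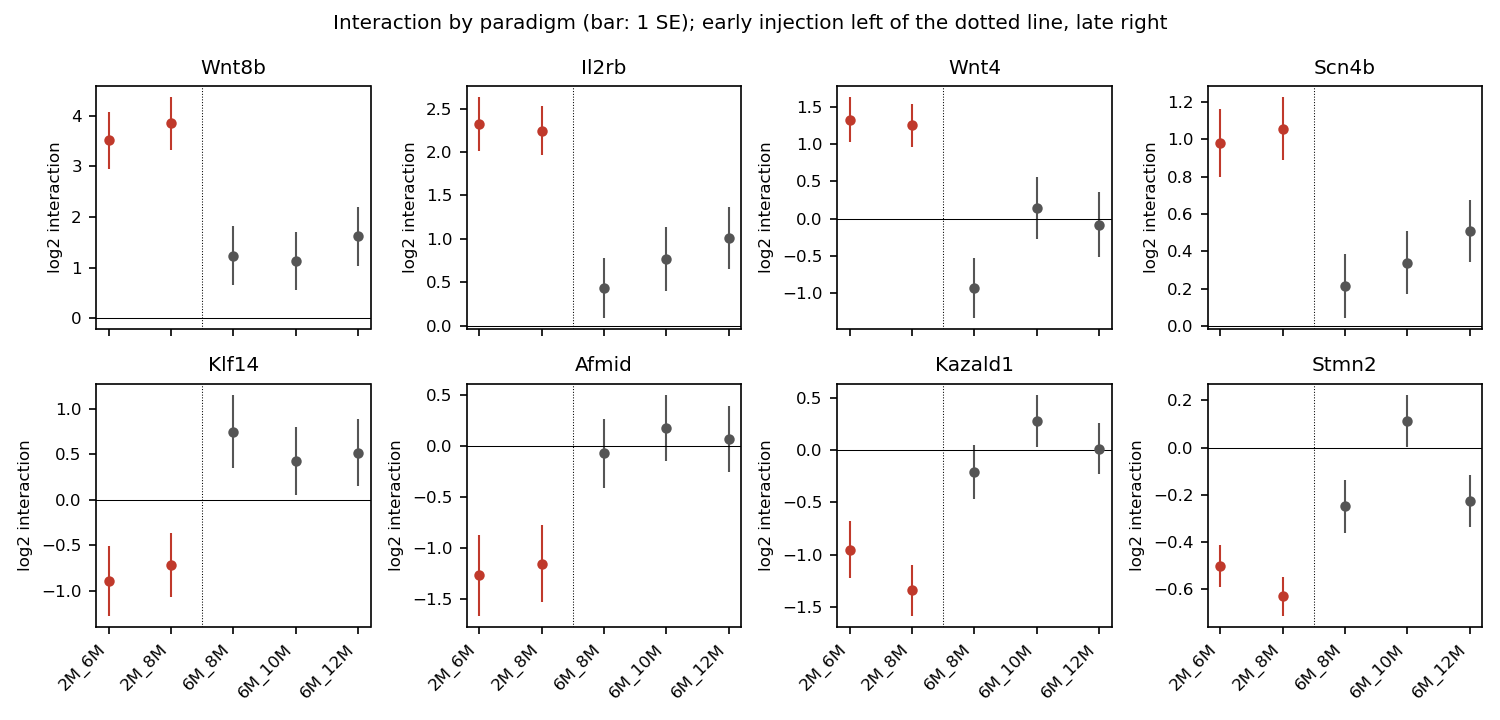
Log2 interaction of 8 genes in each paradigm, with bars of 1 SE; points left of the dotted line are early injection (2M_6M, 2M_8M), points right of it late injection (6M_8M, 6M_10M, 6M_12M). Wnt8b is at 3.52 and 3.85 after early injection and at 1.14 to 1.62 after late injection.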

How the data were processed

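Polyadenylated RNA of single striata was sequenced. The authors deposited expected counts per gene, made with RSEM on GRCm38 per the submitters' processing notes. No version of either is named in the sources. The expected counts were rounded to whole numbers; 41128 entries were mouse genes, 40254 with a symbol (GENCODE M21). Entries for vector sequences and the human exon, at most 0.419% of a library, were kept out of library sizes. The deposited FPKM values were not used.

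Genes were filtered with filterByExpr over the groups, scaled with TMM and fitted with edgeR 4.0.16 (robust quasi-likelihood; R 4.3.3, limma 3.58.1), with paradigm as a block and sex as a covariate. P-values were Benjamini-Hochberg adjusted over all genes tested, with a threshold of 0.05. They measure the spread between libraries, and 15 mice gave 2 libraries. The paradigm contrasts used 8 groups, and the late comparison all early and late groups. The members, gene lists and rules were chosen with earlier results of these data known. Named genes were Htt, the 12 highest and 12 lowest interactions with a mean of at least 1 CPM, up to 3 called members of each list, the 6 highest and 6 lowest shared genes, 3 genes per direction called in WT but not in zQ175, and up to 3 per direction for the differences between paradigms. Predicted and clone names were left out, and some genes that the rule names are not reported here. The procedure was tested on simulated data. Alternatives were the Estop control virus, DESeq2 1.42.0, other filters, libraries put back or left out, other blocks and covariates. Replicate numbers did not pair libraries (median correlation of deviations 0.015 over 87 pairs); libraries of 1 mouse had a median of 0.128 over 15 pairs. Of the left-out libraries, WT DBD replicate 6 held 59.2 CPM of the WPRE vector element, and zQ175 DBD replicate 3 had a length index of -1.206.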

Additional observations from a re-analysis of the deposited data

Results flagged for a closer look

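One library stood far from its group: WT DBD 2M_6M replicate 7 had a length index of -0.211, with the nearest of the other libraries at 0.16. This gap was 0.709 of the group's range, past the 95% critical value of Dixon's test. Dixon's test was run 28 times, and chance flags about 1 in 20. The runs covered the length index, gene counts and Htt in every group, and the ZFP30645 level in the nZFP groups. Without this library the interaction was called for 1044 genes.

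The response to the repressor differed between genotypes for 1029 genes by the interaction term. It differed between early and late injection for 81 genes, also by the interaction term. Among the named genes the early minus late difference on the log2 scale was 2.34 for Wnt8b, 1.57 for Il2rb and 1.53 for Wnt4. It was -1.37 for Klf14, -1.27 for Afmid and -1.14 for Kazald1.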

How the results depend on the processing

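No result reversed under any alternative run. The interaction (1029 genes) was called for 944 to 1145 genes with Estop, DESeq2, other filters, the 2 left-out libraries put back, averaged contrasts, no sex covariate or without WT DBD 2M_6M replicate 7. Of the 1029 genes, 687 were kept against Estop (952 called) and 1027 with DESeq2 (1145 called). With replicate number as a block 1031 were called, and this block moved no count by over 1.5 times. Larger counts came with the length index as a covariate (2024), each mouse as a block (1598) and both together (2256). In 2M_6M (218) the length index gave 589 and the mouse block 343. In 2M_8M (453) the length index gave 1092, the mouse block 989 and putting back the left-out libraries 232. The count in WT (285) was 522 with Estop, 145 with the left-out libraries put back and 444 without WT DBD 2M_6M replicate 7. With the length index it was 310, and the count in zQ175 (2928) was 4273. Chosen after seeing the data, the 2M_8M libraries with a length index below 0 gave 14 genes for the interaction, 211 for zQ175 and 11 for WT. The 2M_6M libraries with an index above 0 gave 468 for the interaction and 68 for WT. These subsets hold fewer libraries. The cause of the other shifts was not tested. Of 69 named interactions called, 60 were kept against Estop; those lost included Egr2, Wt1, Greb1l, Fstl5, Hsp90aa1, Rnf2, Kl and Klf14. Egr3 and Gadd45a were lost with the left-out libraries put back, as was Greb1l. Genes at under 1 CPM, such as Hoxc4 and Hoxc5, are limited by depth.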
